A study of Homo sapiens with 8 samples.

Results

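The Polycomb repressor genes considered were EZH1, EZH2, EED, SUZ12, JARID2, CBX2, CBX8, BMI1 and RING1, and the measurement was the binding of PML::RARA at them in U937-PR9 cells. U937-PR9 is a myeloid (monocytic) line that carries a PML::RARA transgene under a zinc-inducible promoter, so zinc and the fusion protein arrive together and cannot be told apart in these cells. In Cut&Run, an antibody directs a nuclease to a chromatin protein in isolated nuclei, and the released DNA is sequenced. The study made 8 libraries, 2 each with the anti-PML::RARA and the anti-RARA antibody from cells that received 100 μM ZnSO4, which switches the transgene on, or only water, for 5 h. The values below come from 1 list, that of the anti-PML::RARA antibody after zinc, and the other 3 groups were not analysed here. It holds 15412 peaks reproducible across both replicates. Each peak has a single value, which leaves no replicate error and no test between conditions. Depth per library is unknown.

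The members were the peaks that carried the symbol of one of the 9 genes, together with the peaks without any symbol whose centre lay within 50 kb of such a peak. The rule gave 12 of the 15412 peaks, 6 with a symbol and 6 without. Symbols had been given by the authors where the apex, the position of the largest signal, fell in a promoter. Peaks of 1 list are not replicates of each other. EZH2, EED, JARID2, CBX2, CBX8 and BMI1 had 1 labelled peak each, and EZH1, SUZ12 and RING1 had none. Thus 6 of 9 genes were labelled (66.7%, Wilson 95% interval 35.4 to 87.9%), and of all 20149 protein-coding genes 29.9% were. The genes were chosen with earlier results of these data known, so the interval covers counting only and is not a test against that share. No expression was measured in these libraries, so whether these genes were transcribed in the cells was not tested.

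Polycomb proteins keep genes silent through a pair of large complexes. Polycomb repressive complex 2 (PRC2) methylates histone H3 at H3K27 through EZH2 or its paralog EZH1, with EED and SUZ12 as core subunits and JARID2 as an accessory one. Polycomb repressive complex 1 (PRC1) ubiquitinates histone H2A through RING1 or its paralog, with BMI1 as the partner RING finger protein and CBX proteins such as CBX2 and CBX8 as readers of the methyl mark. In blood cells both complexes restrain differentiation genes and tumour suppressor loci, and several of their genes are altered in myeloid malignancy.

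To show what DNA lay under the fusion protein, the 201 bases centred on the apex are given for 3 of the 12 peaks, on the plus strand of hg19, with every match to the motifs searched in capitals. JARID2 (chr6:15245632-15245832), EZH2 (chr7:148581420-148581620) and CBX8 (chr17:77771021-77771221) were the highest labelled peaks. The motifs were the nuclear receptor half-site AGGTCA, its direct repeats, the ETS core GGAAGT, the SP and KLF site GGGCGG, the AP-1 site TGANTCA, the RUNX core TGTGGT and the C/EBP pattern TTGCNNAA.
JARID2 promoter: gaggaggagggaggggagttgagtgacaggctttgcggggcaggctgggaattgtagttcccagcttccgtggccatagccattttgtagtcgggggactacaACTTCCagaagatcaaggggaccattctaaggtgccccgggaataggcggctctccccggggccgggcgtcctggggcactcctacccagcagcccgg
EZH2 promoter: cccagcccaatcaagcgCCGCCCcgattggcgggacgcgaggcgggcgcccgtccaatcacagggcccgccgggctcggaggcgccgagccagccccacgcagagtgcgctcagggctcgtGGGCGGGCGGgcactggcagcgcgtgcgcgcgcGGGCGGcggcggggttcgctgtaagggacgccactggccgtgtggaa
CBX8 promoter: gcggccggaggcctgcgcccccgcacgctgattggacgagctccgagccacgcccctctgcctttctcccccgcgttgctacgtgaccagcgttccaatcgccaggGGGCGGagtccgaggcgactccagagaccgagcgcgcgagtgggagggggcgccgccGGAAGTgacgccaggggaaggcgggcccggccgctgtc

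Within 200 bp of the apex, on either strand, GGGCGG was found in 10 of the 12 peaks, including all 6 labelled ones. It occurred in 48.7% of all peaks of the list and in 76.2% of all peaks with a symbol. AGGTCA, the half-site to which RAR and RXR bind, was present in 1 of the 12, the distal EED peak, against 23.1% of all peaks. Over the list it was in 16.6% of peaks with a symbol and in 28.8% of those without. No member held a direct repeat of half-sites (AGGTCA, the variant AGTTCA, the variant GGGTCA or the variant GGTTCA, with a spacer of 0 to 10 bases), and neither did most peaks, since 2.02% of the list had one. GGAAGT lay in 3 of the 12 peaks (42.3% of the list). In the JARID2 promoter it began 3 bp from the apex and in the CBX8 promoter 63 bp from it. TGTGGT was found in 5 of the 12 (28.7% of the list), 4 of them peaks without a symbol. Over the whole list it was likewise in 40.3% of peaks without a symbol and in 15.4% of those with one. In the distal EED peak it began 16 bp from the apex. TTGCNNAA was in 2 (16.8% of the list), and TGANTCA in 0 (17.7% of the list, 7.41% of peaks with a symbol and 26.7% of those without). These matches describe the sequence and are not evidence of which factor was bound.

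The 6 labelled peaks lay in DNA rich in G and C. Within 200 bp of the apex the share of G and C ranged from 61.6 to 74.8% with a median of 70.4%, against a median of 64.3% for all peaks with a symbol and 58.1% for the list. The observed over expected ratio of CpG ranged from 0.706 to 1.06 (median of all peaks with a symbol, 0.808). The 6 peaks without a symbol were spread more widely, from 49.9 to 76.8% G and C. JARID2 intron 1, at 76.8%, was richer than 97.7% of the list, whereas the distal EED peak, at 50.1%, lay below the median of 52.9% for all peaks without a symbol. Its CpG ratio of 0.543 was between the medians of all peaks without a symbol (0.257) and with one (0.808). GGGCGG is itself made of G and C, and the part of base composition in its frequency was not tested.

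**Figure D1:**
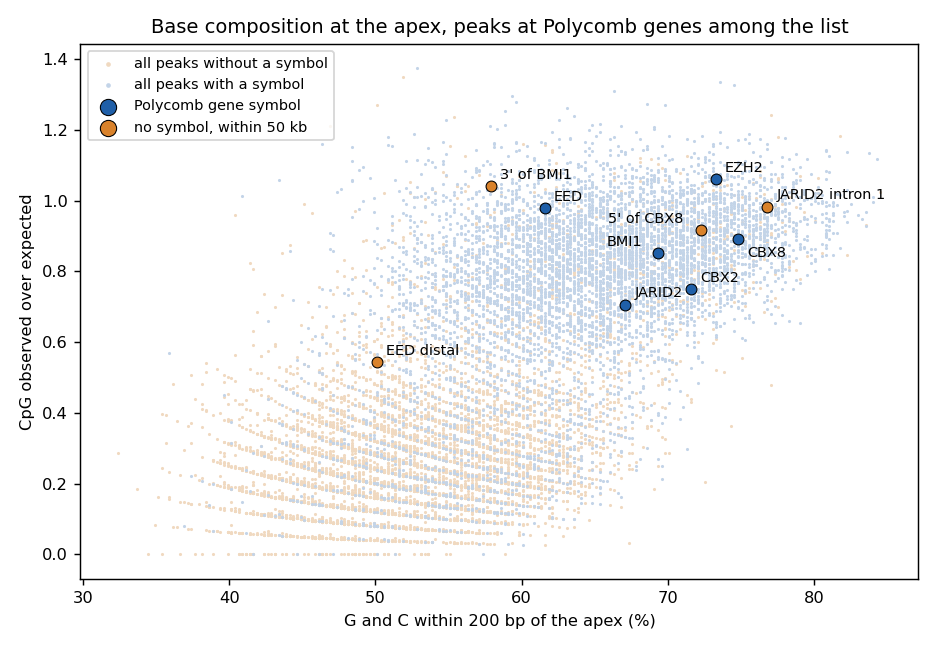
Share of G and C (x axis, %) and observed over expected CpG (y axis, ratio) within 200 bp of the apex, for all peaks (pale points) and for the peaks described singly (large points; blue with a Polycomb symbol, orange without a symbol). All 6 labelled peaks lie above 61% G and C, and the EED distal peak lies at 50.1%.

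The 12 peaks were wide rather than high. Peak height is the largest signal within a peak, a whole number whose normalization is not stated, and it ranged from 17 to 36 at the members, with a median of 23 against 25 for the list (13 to 87). Only 4 of the 12 were higher than the median of the list, and 46.9% of all peaks were. The narrowest member measured 425 bp and the widest 2095 bp, and the median width was 1317 bp against 829.5 bp for the list. Of the 12, 11 were wider than the list's median, which 50% of all peaks exceeded. Peaks with a symbol were often wide, since 5082 of all 7169 exceeded that median, and 2624 of the 8243 without a symbol did. Among the members it was 6 of 6 with a symbol and 5 of 6 without. The 6 labelled peaks had a median height of 23.5 and a median width of 1582 bp, where all 7169 peaks with a symbol had medians of 26 and 1108 bp. The median share of peaks below them was 42.6% by height and 85.7% by width. Set only against peaks of similar width (10 classes of equal size), the median share of lower peaks fell to 26.3%.

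**Figure D2:**
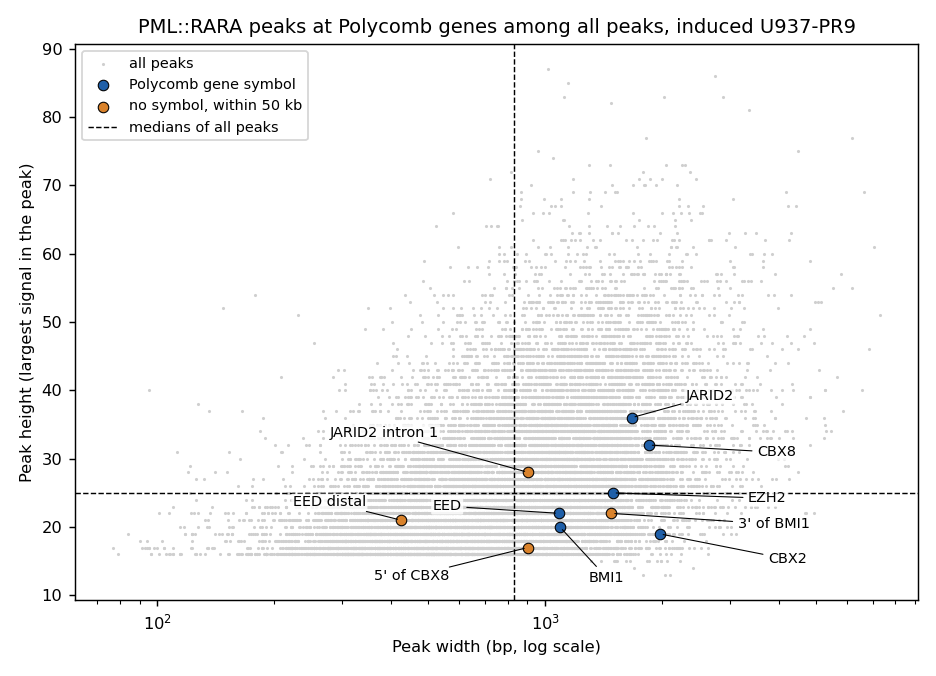
Width (x axis, bp, log scale) and height (y axis, largest signal) of all 15412 peaks (grey) and of the peaks at Polycomb genes described singly (blue with a Polycomb symbol, orange without a symbol); dashed lines are the medians of the list. JARID2, CBX8 and JARID2 intron 1 lie above the median height, and only the EED distal peak lies left of the median width.

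Among the PRC2 genes, JARID2 had the highest peak, which was also the highest of the 12. JARID2 (ENSG00000008083, plus strand of chromosome 6 from 15246300 to 15522273) encodes a DNA-binding subunit that helps bring PRC2 to chromatin. Its labelled peak, from 15244859 to 15246529, had a height of 36, a width of 1671 bp and a total signal of 25145. The apex lay 568 bp upstream of the start site. By height it held rank 2815, a place shared by 273 peaks, above 80.0% of the list. By width it held rank 1819, above 88.2%, and by total signal, which sums the signal over the width, rank 870. A second peak without a symbol, from 15248698 to 15249601, lay in intron 1 with its centre 3455.5 bp away. It was lower and narrower (height 28, rank 5666, width 904 bp, rank 6919), and its apex was 225 bp upstream of an internal start site of JARID2, within the antisense gene JARID2-AS1. Cut&Run reads do not show which of these overlapping genes a site serves.

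EZH2 (ENSG00000106462, minus strand of chromosome 7 from 148504349 to 148581413), the methyltransferase of PRC2 in dividing cells, had a single peak from 148580626 to 148582118. Its apex was 107 bp upstream of the nearest start site. The height of 25 equalled the median of the list (rank 7226, shared by 591 peaks), while the width of 1493 bp held rank 2586, above 83.2% of the peaks. The signal averaged over the width was 7.67, lower than the list's median of 8.74. No other peak lay within 50 kb of it.

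EED (ENSG00000074266, plus strand of chromosome 11 from 85912254 to 85989855), which binds methylated H3K27 and stimulates the enzyme, had a labelled peak from 85955702 to 85956787 with its apex in the 5′ UTR, 130 bp downstream of a start site. It was of modest height (22, rank 9138) and width (1086 bp, rank 5212). Another peak without a symbol, from 85913752 to 85914176, was centred 42280.5 bp away and lay 1709 bp downstream of the first start site of a long EED transcript, upstream of the canonical one. This was the narrowest of the 12 at 425 bp (rank 13058), with a height of 21 (rank 9879), and it held the AGGTCA half-site, 85 bp from its apex.

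SUZ12 (ENSG00000178691, plus strand of chromosome 17 from 30264026 to 30328057), the scaffold of PRC2, had no peak over the gene. The nearest peak, 34994 bp from the gene, carried the symbol UTP6, a ribosome biogenesis gene, and had a height of 28. EZH1 (ENSG00000108799, minus strand of chromosome 17 from 40852293 to 40897067) was without a label but not without a peak. From 40896331 to 40897265 a peak without a symbol covered its 5′ end, with the apex in intron 1, 256 bp downstream of a start site. Its height of 24 (rank 7817) was 1 unit below that of EZH2, and its width was 935 bp (rank 6596). Because no labelled EZH1 peak exists, the rule for members did not take it in. Counted by an apex within 1 kb of a start site, 7 of the 9 genes had a peak, and 39.2% of all protein-coding genes did. Counted by overlap with the gene, 7 of 9 had one as well (45.0% of all). A label at or above the median height was held by 3 of the 9 (17.5% of all), and one at or above the median width by 6 (22.3% of all).

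Among the PRC1 genes, the peaks at BMI1 and CBX2 were low. BMI1 (ENSG00000168283, plus strand of chromosome 10 from 22610028 to 22620413), which supports stem cell self-renewal by repressing the CDKN2A locus, had a labelled peak from 22609665 to 22610756 with its apex in the 5′ UTR, 173 bp downstream of the start site. With a height of 20 (rank 10691) it exceeded 25.5% of the list, and with 1092 bp (rank 5163) 66.4%. The read-through gene COMMD3-BMI1 gave its symbol to a peak 4755 bp upstream (height 19, width 1296 bp), which is the promoter of COMMD3, so transcripts that include BMI1 start under either peak. A peak without a symbol lay between BMI1 and SPAG6, a gene of cilia and flagella, from 22629209 to 22630689. Its apex was in an exon of another annotated gene, ENSG00000272366. The peak was wide (1481 bp, rank 2658) and of height 22 (rank 9138), but its mean signal of 4.60 held rank 15308 of 15412, among the lowest of the list. SPAG6 itself had a labelled peak of height 17. RING1 (ENSG00000204227, plus strand of chromosome 6 from 33176277 to 33180499), an H2A ubiquitin ligase, had no peak over the gene, and the nearest one lay 6841 bp away.

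CBX2 and CBX8 stand next to each other on chromosome 17. CBX2 (ENSG00000173894, plus strand from 77751947 to 77761782), a reader that compacts nucleosomes, had a peak from 77751153 to 77753126. It was the lowest of the 6 labelled peaks at a height of 19 (rank 11488) and the widest of them at 1974 bp (rank 1107, above 92.8% of the list). Its interval of largest signal has no end in the list, and the start of that interval, taken as the apex, lay 412 bp upstream of the start site. CBX8 (ENSG00000141570, minus strand from 77765931 to 77775482), another CBX reader of PRC1, had its peak from 77769945 to 77771794 and the apex was 245 bp upstream of the canonical start. At 32 in height (rank 4034) it exceeded 71.5% of the list, and at 1850 bp in width (rank 1385) 91.0%. The centres of these peaks were 18730 bp apart.

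Farther along, a peak without a symbol, from 77777582 to 77778483, lay 2651 bp upstream of the farthest CBX8 start site. It was the lowest of the 12 with a height of 17 (rank 13294), and its width was 902 bp (rank 6938). Its DNA was rich in G and C (72.3%), with a CpG ratio of 0.916.

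**Figure D3:**
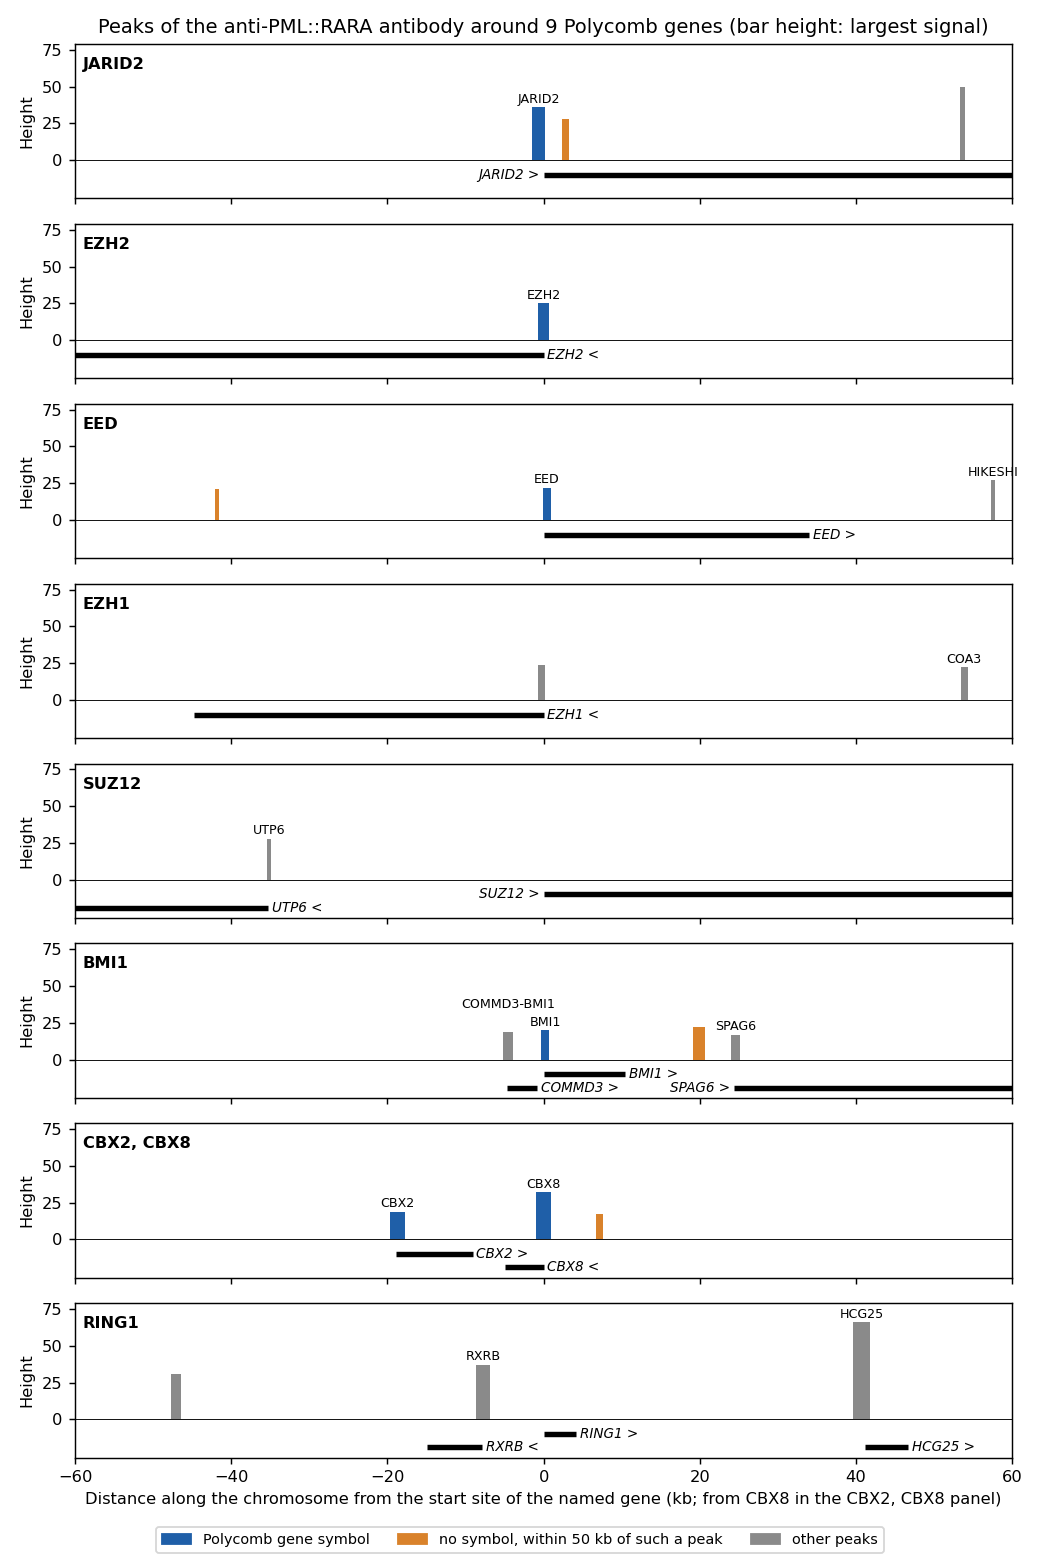
Peaks in 60 kb to either side of the start site of each gene (x axis, distance along the chromosome in kb; y axis, peak height; bar width follows peak width, drawn at 0.5 kb or more), blue with a Polycomb symbol, orange without a symbol and within 50 kb of such a peak, grey otherwise; black lines are canonical transcripts. Only peaks described in the text are drawn in the CBX2, CBX8 panel. The EZH1 start site has a grey peak of height 24, and no peak stands at the start sites of SUZ12 and RING1.

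Height and width placed the peaks differently. CBX2 was above 19.5% of the list by height and above 92.8% by width, and the peak between BMI1 and SPAG6 above 35.9% and 82.7%. JARID2 intron 1 came closest to equal places, with 60.1 and 55.0%, and only there and in the EED distal peak was the share by width below that by height. By total signal the 6 labelled peaks were all above the median of the list, from 54.3% at BMI1 to 94.4% at JARID2. Of all 7169 peaks with a symbol, 4839 were above that median. By mean signal per bp 2 of the 6 were above the list's median, JARID2 (15.0) and CBX8 (9.81), and 3901 of the 7169 were.

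**Figure D4:**
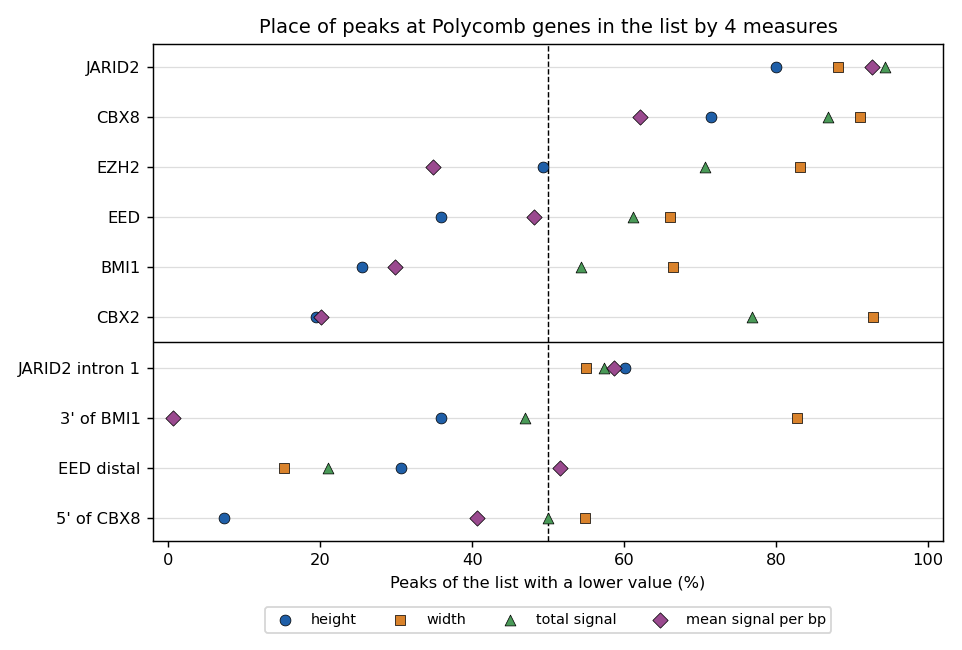
Share of the 15412 peaks with a lower value (x axis, %) for each peak described singly (rows; the 6 with a Polycomb symbol on top) by height, width, total signal and mean signal per bp. Squares for width lie right of the circles for height in every row but those of JARID2 intron 1 and EED distal, and the mean signal of the peak 3′ of BMI1 lies at 0.675%.

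Of the 6 peaks without a symbol, 3 lay toward the edge of the 50 kb distance, with centres 39882.5, 42280.5 and 48317.5 bp from that of the nearest labelled member, the EED distal peak being the one at 42280.5 bp. The nearest peak left out, 54271.5 bp from the JARID2 peak, was higher than any member (height 50) but only 546 bp wide.

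A list of 45 other Polycomb genes was examined in the same way. Of these, 29 carried a labelled peak (64.4%, Wilson 95% interval 49.8 to 76.8%, against 29.9% of protein-coding genes), 37 peaks in all with a median height of 23 and a median width of 1261 bp. By class, 5 of 9 further PRC2 genes, 13 of 22 PRC1 genes, 6 of 9 genes of the H2A deubiquitinase complex PR-DUB, both H3K27 demethylase genes and all 3 recruiters and readers (E2F6, MGA and YY1) were labelled. The list overlaps in function with the 9 genes and was drawn up with earlier results of these data known. It is thus not independent of them, and its interval covers counting only and is not a test.

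The 2 highest labelled peaks of these genes stood at 2 PRC2 accessory subunits. The other labelled PRC2 genes of this list had heights of 19 to 24, below the list's median of 25. PHF1 and PHF19, Tudor domain proteins that guide PRC2, had heights of 45 (33377687 to 33379310 on chromosome 6) and 44 (123638123 to 123640170 on chromosome 9), above 92.0 and 91.0% of the list and higher than any of the 12. KDM2B, which brings a variant PRC1 to CpG islands, followed with 43, while its other labelled peak had a height of 16, above 0.130% of the list. ASXL1 reached 39, and BAP1, its partner and the deubiquitinase of PR-DUB, 36, a height that a second PHF19 peak shared. The widest were 2 of 3 peaks labelled BCOR, a corepressor of variant PRC1, with 3545 and 3107 bp, then YY1 with 3055 bp, ASXL1 with 2083 bp and BAP1 with 2069 bp.

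Without a label were RBBP4, AEBP2, MTF2 and EZHIP of PRC2, PCGF2, PCGF5, PCGF6, PHC1, PHC3, SCML2, YAF2, L3MBTL2 and AUTS2 of PRC1, and ASXL3, MBD5 and MBD6 of PR-DUB. As with EZH1, a missing label was not always a missing peak. An apex within 1 kb of a start site was found for 39.2% of all protein-coding genes, labelled ones included. The share among all genes without a label was not counted. Of the 16 genes just named, 5 had such an apex. At MBD6 a peak without a symbol was 117 bp away and had a height of 50, and at PHC3 and YAF2 such peaks had heights of 16 and 19. The RBBP4 and MBD5 start sites lay under peaks that carried the symbols of their neighbours ZBTB8OS (height 34) and ORC4 (height 22).

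**Figure D5:**
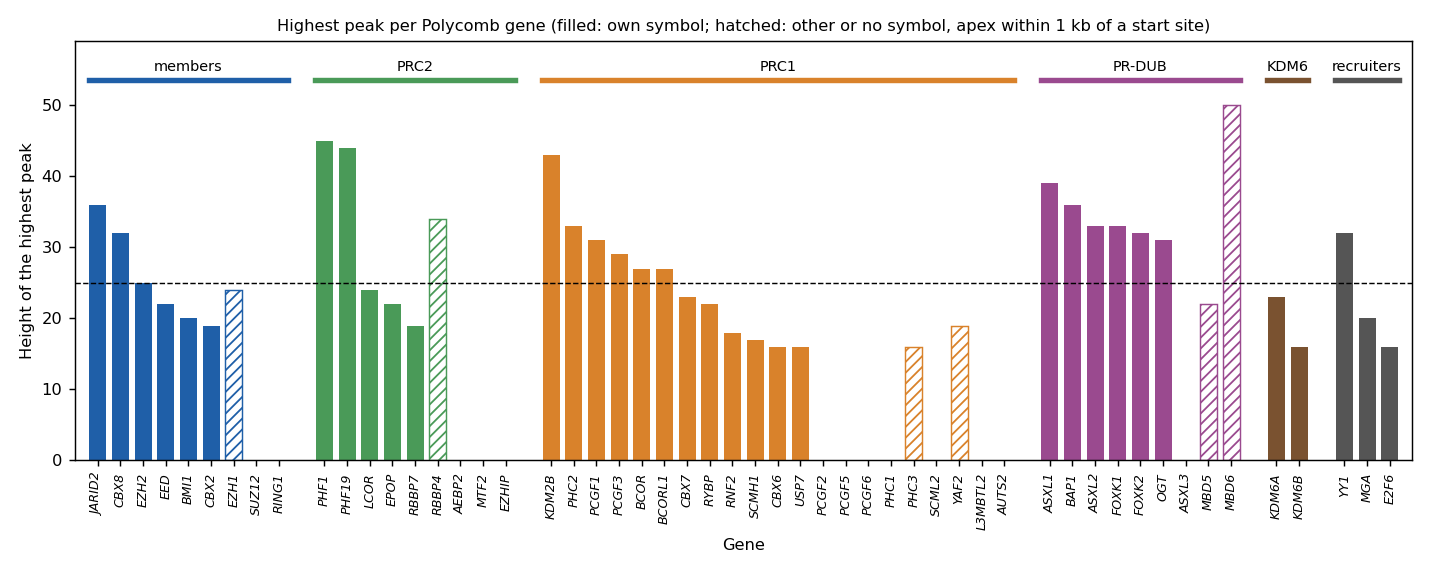
Height of the highest peak (y axis) of each Polycomb gene shown (x axis), grouped by complex and sorted within each; filled bars carry the gene's own symbol, hatched bars are the nearest peak with another or no symbol and an apex within 1 kb of a start site, and the dashed line is the median height of the list, 25. Of the 9 genes in the first group, 6 have filled bars, EZH1 a hatched one, and SUZ12 and RING1 none.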

How the data were processed

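Cut&Run was done in U937-PR9 cells with 2 antibodies, with and without zinc, 2 replicates each. According to the methods and the submitters' processing notes, reads were trimmed (Trimmomatic), mapped to hg19 (Bowtie2), and cleared of PCR duplicates (SAMtools) and blacklisted regions (Bedtools). Peaks were then called by SEACR with norm union thresholds over paired controls, and those passing an IDR of 0.05 across replicates were retained. Versions are not given in the sources used here. Gene symbols mark an apex inside a promoter of the UCSC known gene set. The list was matched to its group by its name and its number of peaks. For each peak the authors deposited a value labelled summit, read here as the total signal, and a SEACR score, read here as the largest signal (height). Both are whole numbers without stated normalization. Their meaning was read from the values, since the total was below height times width in all 15412 peaks. Whether they come from 1 replicate or both is not stated. Total signal sums over the width of a peak. The effect of stricter calling was not tested.

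Ranks count the peaks with a larger value plus 1, and percentages the peaks with a smaller one. The apex was the midpoint of the interval of largest signal, or its start where the end is missing (34 peaks). Positions came from GENCODE release 44 on GRCh37, whose chromosome lengths contain every peak. All 9 and all 45 gene symbols occur in it. Motifs were counted on both strands in 401 bp, and the search was checked on made-up sequences. No test was run, as the list holds 1 value per peak. Intervals of shares cover counting only. The members, the gene lists and the alternatives were chosen with earlier results of these data known. Named from the wider list were the 5 highest and 5 widest peaks and every gene without a label. A withheld item is not reported here, and with it the single values of 2 of the 12 peaks, which stay in the counts, ranges and medians. Analyses used Python 3.11.15, numpy 2.4.6, scipy 1.17.1, pandas 2.3.3 and matplotlib 3.10.9.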

Additional observations from a re-analysis of the deposited data

How the results depend on the processing

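No paired analysis was possible because each peak has a single value with no replicate named, and for that reason no replicate could be left out. Restricted to peaks at or above the median height, which shortens the list by construction, 3 of the 9 genes kept a label in place of 6. Of the 45 other genes 16 were labelled in place of 29, and of all protein-coding genes 17.5% in place of 29.9%. The loci held 5 peaks in place of 12, and of all 15412 peaks 7596 fell below that height. By median share of lower peaks, the height of the labelled members moved from 42.6% to 37.2% among peaks with a symbol only, to 26.3% among peaks of the same width class and to 41.4% with peaks under 1 kb apart merged. It was 73.8% with total signal in place of height, which sums over the width. The width moved from 85.7% to 76.7% among peaks with a symbol and to 81.8% with merging. In whole peaks, a larger stretch, AGGTCA was found in 3, GGAAGT in 10 and TTGCNNAA in 4 of the 12, against 42.9, 60.2 and 30.5% of all peaks. These shares are not like for like, since the 12 were wider (median 1317 against 829.5 bp) and more bases were searched in them. Within 100 bp of the apex TGTGGT was found in 3 and TTGCNNAA in 1, against 19.4 and 9.64% of all peaks. The other counts stayed within 1.5 times of those given, among them the genes labelled at or above the median width (6 of 9), genes overlapped by a peak (7 of 9) and the peaks within 10 kb (8) or 100 kb (16). Depth is unknown, so a gene without a peak, such as SUZ12 or RING1, is one where none was called.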

Other observations

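JARID2 spans 275974 bp and held 5 peaks over the gene, 3 of them more than 50 kb from its labelled peak. The one in intron 1 from 15299693 to 15300238 was narrow (546 bp, above 26.3% of the list) and high (50, above 95.4%), and exceeded all 12 members in height. The others, from 15365557 to 15366023 in intron 1 and from 15418072 to 15418438 in intron 3, had heights of 23 and 20 and widths of 467 and 367 bp. All 3 were narrower than at least 11 of the 12 members, the promoter peak of JARID2 being 1671 bp wide.

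The peak nearest to RING1, from 33167576 to 33169436 on chromosome 6, carried the symbol RXRB, which encodes a retinoid X receptor, the DNA-binding partner of RAR. Its apex was closest to SLC39A7, a zinc transporter gene (46 bp upstream of its start), and its height of 37 exceeded 81.7% of the list. On the other side of RING1 a peak labelled HCG25, from 33215938 to 33218080, had a height of 66, rank 59 of the list, and held both AGGTCA and TGANTCA within 200 bp of its apex. Beyond the 3′ end of EZH1, 2 peaks labelled PLEKHH3 had heights of 47 and 34, both above the EZH1 peak at 24.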
